A study of Mus musculus with 10 samples.

Results

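The interleukin-1 (IL-1) family was examined in the jejunum through 9 genes chosen by symbol: the cytokine genes Il1a, Il1b, Il18 and Il33, the receptor genes Il1r1, Il1r2 and Il1rl1, and the inhibitor genes Il1rn and Il18bp. All 9 were found among the 24062 gene symbols of the count tables, and all 9 passed the filter on low counts (5 or more counts in at least 1 library), which kept 17632 genes. The jejunum was sequenced at postnatal day 5 in 5 WT and 5 KSR23 libraries. WT mice were wild type on the C57BL/6 strain. KSR23 mice, of the same strain, carried a cassette for both subunits of interleukin-23 (IL-23) in the ROSA26 locus behind a floxed STOP, and a cre recombinase under the keratin 14 promoter removed the STOP, so that the cytokine was made in keratinocytes. Keratinocytes are not a cell type of the jejunum, and the comparison asks how the jejunum of mice with IL-23 made in the skin differs from that of controls.

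Cytokines of the IL-1 family start inflammation by binding receptors that signal through the adaptor MyD88 and IRAK kinases to the transcription factor NF-kB. IL-1 alpha and IL-33 act as alarm signals from damaged cells, whereas IL-1 beta and IL-18 are made as precursors and cut by caspase-1 in inflammasomes. Gut epithelium is a well known source of IL-18. The family is held in check at several steps, by the receptor antagonist encoded by Il1rn, by the decoy receptor encoded by Il1r2, and by the secreted IL-18 binding protein encoded by Il18bp.

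The libraries held 25.5 to 60.9 M counts in genes (M stands for mega), and 3 counts, taken as the floor of detection, corresponded to 0.0492 to 0.118 CPM (counts per M counts of the library). Replicates 4 and 5 of both groups stood apart, since their values were intermediate at most genes. They were the highest or the lowest of their group at 12.4% to 21.4% of 13181 genes with 5 or more counts in every library, against 45.1% to 70.2% for replicates 1 to 3, and 40% for libraries that were exchangeable. The labels do not say whether each library came from its own mouse, and whether replicates 4 and 5 hold mixed or pooled RNA was not tested, so that each n, SD and p covers the spread between libraries, which may not be 5 independent mice. Calls were therefore also read from replicates 1 to 3 alone. Y-linked transcripts were uneven as well, with 9035 and 4330 counts in KSR23 replicates 1 and 4 and 1 to 9 in the other KSR23 libraries, and 492 to 6347 in WT. A covariate made of their share is therefore partly confounded with group and leans on KSR23 replicates 1 and 4. Estimates with it, given below as an alternative, cannot separate sex from group. Of the IL-23 subunit genes, Il12b had 0 to 5 counts in WT and 9 to 40 in KSR23, and Il23a had 1 to 14 and 8 to 34. The defining epithelial markers of the jejunum were present in every library (Krt19, 19498 or more counts, and Vil1, 8586 or more).

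Of the 9 genes, Il18 and Il18bp rose in KSR23 jejunum and no member was called lower. These were the genes of a cytokine and of its own soluble inhibitor, and they were also the only members whose KSR23 libraries all lay above all WT libraries. For the other 7 genes the groups overlapped and the adjusted p ranged from 0.0752 to 0.976. A call means an adjusted p under 0.05 over all genes in the likelihood ratio test of edgeR. That test called 18.5% of all genes tested, 9.73% as higher in KSR23 and 8.76% as lower, so that 2 called of 9 (22.2%) was close to the background. At an unadjusted p under 0.05, 5 of the 9 members were higher (Il18, Il18bp, Il1a, Il1r1 and Il1rl1) and 0 lower, against 30% of all genes past that threshold (15.9% higher and 14% lower in KSR23). The quasi-likelihood F test, a more conservative test in the same package, called the same 2 members and 15.4% of all genes. Within replicates 1 to 3, where the 2 tests called 3.36% and 0.812% of all genes, Il18 was the only member called by either. Complete separation with KSR23 above WT was seen in 7.41% of all genes, and separation in either direction in 14.4%.

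**Figure D1:**
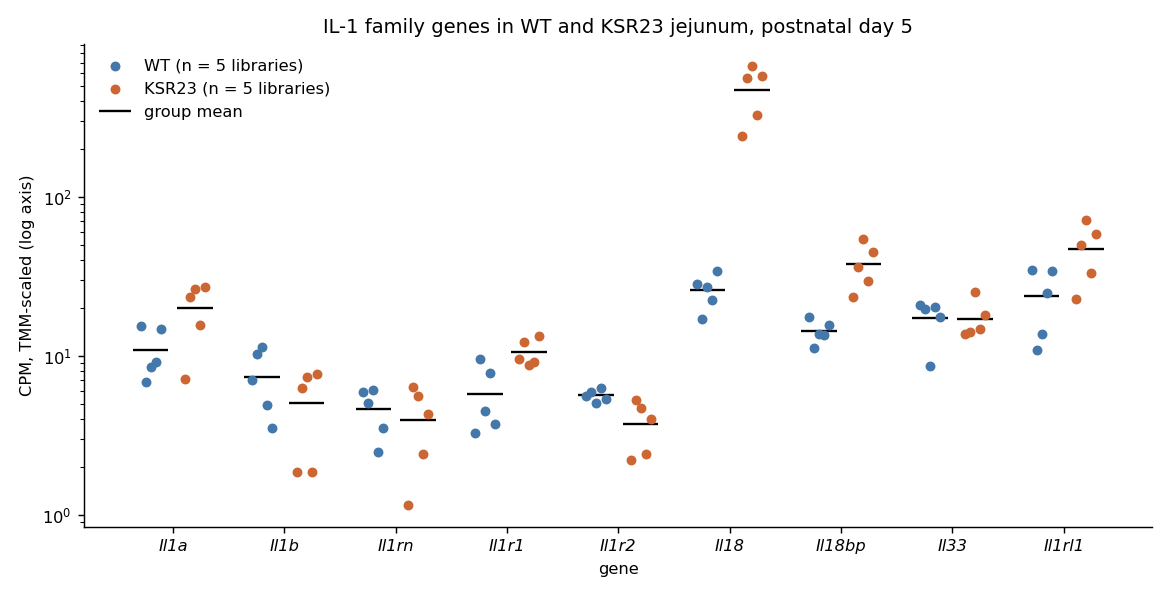
CPM scaled by library size factors (log axis) of the 9 IL-1 family genes, with 1 point per library, 5 WT and 5 KSR23, and a line at each group mean. Il18 stands at 17 to 34.1 CPM in WT and 240.4 to 666 CPM in KSR23, Il18bp is the other gene whose groups do not overlap, and the remaining 7 genes overlap.

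Il18 encodes the precursor of IL-18, a cytokine known for driving interferon-gamma production by lymphocytes together with IL-12. In WT replicates 1 to 5 it had 28.2, 17, 27.1, 22.3 and 34.1 CPM. In KSR23 replicates 1 to 5 it had 240.4, 563, 666, 325 and 573 CPM. The lowest KSR23 library was thus several fold above the highest WT library, and replicates 1 and 4 were the lowest of the KSR23 group. The mean rose from 25.7 ± 6.45 CPM to 473 ± 181 CPM (SD, n = 5 each), an 18.4-fold difference of the means. The log2 fold change from the model was 4.20 (SE 0.33, 95% interval 3.55 to 4.85, adjusted p = 3.51e-26; quasi-likelihood adjusted p = 1.66e-05). Among the 17632 genes Il18 was 32nd by adjusted p and 143rd by the size of its increase, and its mean level moved from rank 4682 to rank 285.

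In raw counts, Il18 had 480 to 912 in the WT libraries and 16765 to 20294 in the KSR23 libraries. The KSR23 counts were thus nearly level across libraries of 31.2 to 60.9 M counts, and replicates 1 and 4, with the highest totals, had the lowest CPM. With replicates 4 and 5 left out of both groups, Il18 was still called by either test (adjusted p = 1.81e-09 and, by quasi-likelihood, 0.0134), and its log2 fold change stayed between 3.49 and 4.42 in all alternatives tried.

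Il18 lies on chromosome 9 (mm10, 50554827 to 50581840, plus strand, 8 merged exon blocks). The strand setting of the counting was not given, so that reads of genes overlapping on opposite strands cannot be told apart there. Tex12 and Bco2 lie within or across Il18 on the minus strand and share no annotated exon base with it. Tex12 had 5 to 14 counts in WT and 85 to 380 in KSR23 (log2 fold change 4.21, SE 0.43, adjusted p = 1.35e-18), at most a few percent of the Il18 counts in any library. Bco2 had 445 to 977 counts in WT and 527 to 3022 in KSR23, with overlapping CPM.

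Il18bp encodes the secreted protein that binds IL-18 and keeps it from its receptor. It had 17.6, 11.1, 13.7, 13.5 and 15.6 CPM in WT replicates 1 to 5. In KSR23 replicates 1 to 5 it had 23.5, 36.0, 53.9, 29.3 and 45.1 CPM. The groups did not overlap, and replicates 1 and 4 were again the lowest of the KSR23 group. The mean rose from 14.3 ± 2.44 to 37.6 ± 12.2 CPM (SD, n = 5 each), a 2.63-fold difference (log2 fold change 1.39, SE 0.31, 95% interval 0.78 to 2.0, adjusted p = 0.000212; quasi-likelihood adjusted p = 0.0039). Without replicates 4 and 5 the change of Il18bp was of like size (1.45 on the log2 scale) but not called (adjusted p = 0.175, or 0.253 by quasi-likelihood). With the share of Y-linked counts of each library as a covariate it was 0.90 (adjusted p = 0.0495). Il18bp lies on chromosome 7 (mm10, 102014885 to 102018690, minus strand), where 80 of its exon bases overlap an exon of Numa1 on the plus strand. Numa1 was itself higher in KSR23 (log2 fold change 0.97, SE 0.32, adjusted p = 0.0185), and its part in the Il18bp counts was not tested.

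As Il18 and Il18bp were the members that rose together, the 250 bases before their RefSeq transcription starts (build GRCm38.p6) are shown for comparison of the sequences. The Il18 window is chr9:50554450-50554699 on the plus strand, and the Il18bp window is chr7:102018233-102018482 on the minus strand. Each is written 5′ to 3′ along the gene's own strand.

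Il18: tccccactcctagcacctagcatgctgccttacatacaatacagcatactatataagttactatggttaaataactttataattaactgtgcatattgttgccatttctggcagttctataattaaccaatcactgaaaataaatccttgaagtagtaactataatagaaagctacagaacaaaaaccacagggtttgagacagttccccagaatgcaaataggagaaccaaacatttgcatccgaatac

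Il18bp: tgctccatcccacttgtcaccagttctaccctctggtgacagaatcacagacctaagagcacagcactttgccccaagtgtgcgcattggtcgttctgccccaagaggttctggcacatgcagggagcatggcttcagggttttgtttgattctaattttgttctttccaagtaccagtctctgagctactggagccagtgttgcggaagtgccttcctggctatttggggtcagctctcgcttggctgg

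Both strands of the windows were searched for 4 motifs, and capitals would mark a match. The motifs were a STAT site (TTCNNNGAA), an interferon response core (GAAA, any 2 bases, and GAAA again), an NF-kB site and an AP-1 site (TGANTCA). Neither window held any of them, so both are in lower case throughout. The RefSeq starts differ from the GENCODE gene bounds. GENCODE starts Il18bp at 102018690, so its window lies inside that gene. For Il18 the GENCODE start is 50554827, downstream of the window, and the bases after the RefSeq start were not found in a GENCODE transcript. The absence of matches holds for these windows only, and other starts of the 2 genes were not searched. Over all 32851 RefSeq promoter windows of this length, 7.02% held the STAT letters, 2.98% the interferon response core, 7.25% the NF-kB letters and 6.75% the AP-1 letters. All 9 members had a RefSeq start, with 14 windows between them. Single matches were found before a start of Il1r2 (STAT, TTCAAGGAA, 111 to 103 bases before it), Il1r1 (NF-kB, GGAATGCCCC, 232 to 223 bases), Il1rn (AP-1, TGAGTCA, 141 to 135 bases) and Il1a (AP-1, TGACTCA, 12 to 6 bases). These are matches of letters and not sites of binding.

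The ligands of the IL-1 receptor were then compared. Il1a encodes IL-1 alpha, which many epithelial and stromal cells hold ready. It had 15.3, 6.86, 8.48, 9.19 and 14.8 CPM in WT replicates 1 to 5 and 7.11, 23.3, 26.4, 15.6 and 27.2 CPM in KSR23 replicates 1 to 5. In KSR23, 4 of the 5 libraries lay above all WT libraries, and replicate 1 lay near the bottom of the WT range. The log2 fold change of Il1a was 0.87 (SE 0.40, 95% interval 0.08 to 1.66, adjusted p = 0.125), which was not called. Without KSR23 replicate 1 the log2 fold change was 1.13 and called (adjusted p = 0.00962), whereas with the Y-linked covariate it was 0.10 (adjusted p = 0.922). Of the 75-base stretches of Il1a transcripts, 7.95% also occurred in Gm14023, a transcript that overlaps Il1a on the opposite strand, so that some of its reads may have been left uncounted.

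Il1b encodes IL-1 beta, the product of activated myeloid cells. Its values were 7.0, 10.2, 11.3, 4.92 and 3.53 CPM in WT and 1.85, 6.29, 7.39, 1.84 and 7.71 CPM in KSR23. The KSR23 libraries were split, with replicates 1 and 4 below all WT libraries and the other 3 inside the WT range. Il1b averaged 7.38 ± 3.31 CPM in WT and 5.02 ± 2.94 CPM in KSR23 (SD, n = 5 each), and its interval was wide (log2 fold change -0.56, SE 0.50, 95% interval -1.53 to 0.41). The covariate of Y-linked counts moved this value to -1.95 (adjusted p = 0.000417). Replicates 1 and 4 were the KSR23 libraries with Y-linked transcripts and also the deepest, so that sex, depth and the individual mice cannot be told apart in these low values.

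Il1rn, the gene of the receptor antagonist, followed a like pattern across libraries. It had 5.88, 5.02, 6.05, 2.48 and 3.53 CPM in WT and 1.15, 6.35, 5.60, 2.39 and 4.29 CPM in KSR23. Again replicates 1 and 4 were the lowest of the KSR23 group, and the groups overlapped. Il1rn had a log2 fold change of -0.22 (SE 0.46, 95% interval -1.12 to 0.68, adjusted p = 0.802). Its sign turned without KSR23 replicate 1 (0.064), and with the Y-linked covariate it was -1.32 (adjusted p = 0.0488), so no direction is given for it.

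The 2 receptors of IL-1 differ in function, as Il1r1 encodes the signalling receptor and Il1r2 a decoy without a signalling domain. Il1r1 had 3.28, 9.48, 4.51, 7.83 and 3.72 CPM in WT and 9.47, 12.3, 8.74, 9.14 and 13.4 CPM in KSR23. All KSR23 values lay above 4 of the 5 WT values, and WT replicate 2 was the exception. The log2 fold change of Il1r1 was 0.88 (SE 0.36, 95% interval 0.17 to 1.59, adjusted p = 0.0752), not called, and this rested on WT replicate 2, without which it was 1.17 (adjusted p = 0.0151). DESeq2, which called 20.7% of all genes, also called Il1r1 (0.87, adjusted p = 0.0447).

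Il1r2 was the steadiest member in WT, with 5.60, 5.90, 5.06, 6.28 and 5.33 CPM, a coefficient of variation of 8.44%. In KSR23 it had 2.22, 5.26, 4.69, 2.39 and 4.01 CPM, a coefficient of variation of 36.6%. Of these, 4 values lay below all WT values and replicate 2 lay inside the WT range. Its log2 fold change of -0.61 (SE 0.33, 95% interval -1.25 to 0.03) was not called (adjusted p = 0.196), but with the Y-linked covariate it was -1.19 and called (adjusted p = 0.0145).

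Il33 and Il1rl1 form the third pair. Il33 encodes a nuclear alarm cytokine of stromal, endothelial and epithelial cells, and Il1rl1 encodes its receptor ST2, carried by mast cells, group 2 innate lymphoid cells and regulatory T cells, and made in a soluble decoy form as well. The counts were per gene, so the soluble and membrane forms of ST2 were not separated. Il33 had 20.7, 19.6, 8.66, 20.1 and 17.6 CPM in WT and 13.7, 14.1, 25.2, 14.7 and 18 CPM in KSR23. The groups overlapped, with KSR23 replicate 3 above all WT libraries and WT replicate 3 below all KSR23 libraries. The means of Il33 were 17.3 ± 4.99 and 17.1 ± 4.82 CPM (SD, n = 5 each), with a log2 fold change of -0.02 (SE 0.33, 95% interval -0.67 to 0.63, adjusted p = 0.976), an interval that leaves room for a moderate change in either direction.

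Il1rl1 had 34.7, 10.9, 13.8, 24.7 and 34.0 CPM in WT and 22.9, 49.9, 71.0, 33.1 and 58.7 CPM in KSR23. Here 3 KSR23 libraries lay above all WT libraries, and replicates 1 and 4 lay inside the WT range. The mean of Il1rl1 was 23.6 ± 11.1 CPM in WT and 47.1 ± 19.3 CPM in KSR23 (SD, n = 5 each). The log2 fold change of 1.0 (SE 0.42, 95% interval 0.18 to 1.81) was not called (adjusted p = 0.0828; quasi-likelihood adjusted p = 0.108). Without KSR23 replicate 1 it was 1.22 and called (adjusted p = 0.0196), whereas with the Y-linked covariate it was 0.33 (adjusted p = 0.742).

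**Figure D2:**
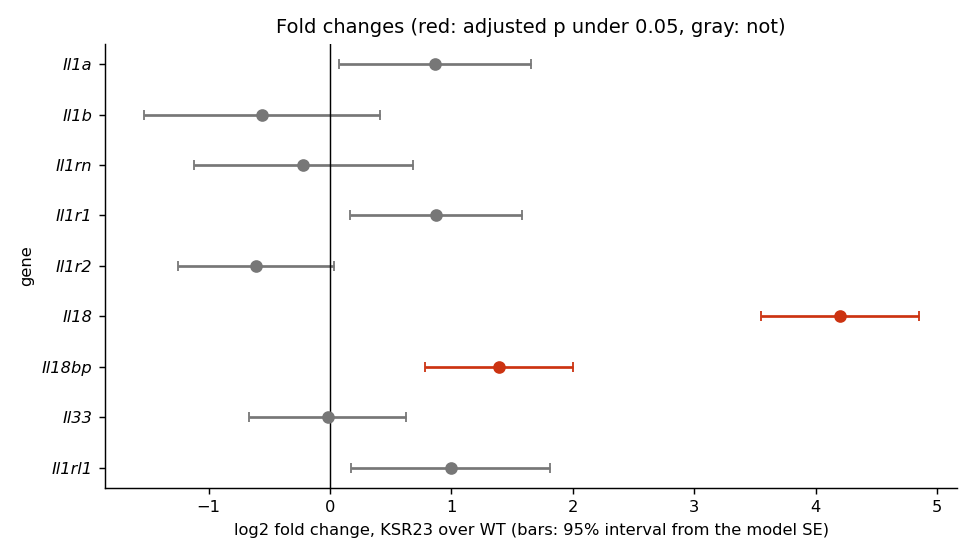
Log2 fold change (KSR23 over WT) of each IL-1 family gene, with bars for the 95% interval from the model SE; red marks an adjusted p under 0.05. Il18 (4.20) and Il18bp (1.39) are red, the intervals of Il1a, Il1r1 and Il1rl1 lie above 0 but miss the threshold after adjustment over all genes, and that of Il33 is centred near 0.

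A pattern over libraries was seen among the members. KSR23 replicates 1 and 4 were among the lowest 2 of their group for 8 of the 9 members each, and replicate 1 was the lowest for 7. The exceptions were Il1r1, where replicates 3 and 4 were lowest, and Il33, where replicates 1 and 2 were lowest. The share of all genes at which these libraries were among the lowest 2 was not computed. A pattern of the family and one of the whole libraries therefore cannot be told apart. Replicates 1 and 4 were also the KSR23 libraries with Y-linked transcripts. The Y-linked covariate, which is partly confounded with group, moved Il1a from 0.87 to 0.10, Il1b from -0.56 to -1.95 and Il1rl1 from 1.0 to 0.33 on the log2 scale. Replicates 1 and 4 had 60.9 and 51.5 M counts against 31.2 to 40.9 M in the other KSR23 libraries. In WT no library held such a place, with replicates among the lowest 2 for 1 to 5 members each.

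**Figure D3:**
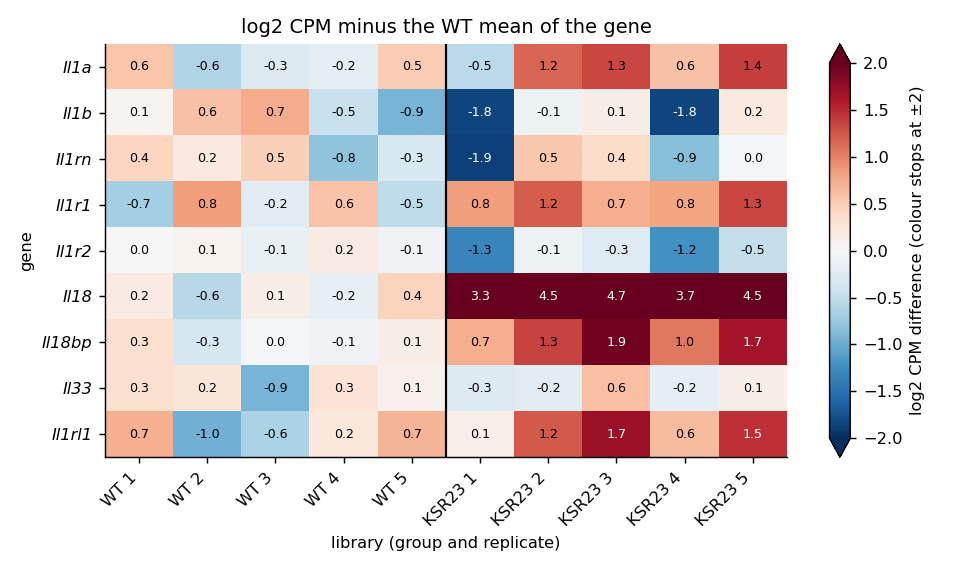
Log2 CPM of each IL-1 family gene in each of the 10 libraries, as the difference from the mean of the WT libraries (colour and number; colours stop at 2 in either direction). The Il18 row is raised by 3.3 to 4.7 in the KSR23 columns, and the columns of KSR23 replicates 1 and 4 hold the lower values of that group in most rows.

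To compare levels between genes, CPM was divided by the exon length in kilobases (CPM per kb). In WT, Il18 led with 25.0 ± 6.26 CPM per kb (SD, n = 5), above all other members in each library. Il33 (6.01), Il1a (5.53), Il18bp (4.73), Il1b (3.87), Il1rl1 (3.43) and Il1r2 (2.95 CPM per kb) followed, and each overlapped its neighbour in this order. Il1r1 (0.906) and Il1rn (0.830 CPM per kb) were the lowest and overlapped each other, but not Il1r2. In KSR23, Il18 stood at 459 ± 176 CPM per kb, followed by Il18bp (12.4), Il1a (10.1), Il1rl1 (6.84) and Il33 (5.94 CPM per kb), each overlapping the next from Il18bp on. Il1b (2.63), Il1r2 (1.95) and Il1r1 (1.66 CPM per kb) came next and overlapped in that order, Il1b lying below Il33 in range, and Il1rn was last (0.715 CPM per kb) and did not overlap Il1r1. Il18 accounted for 38.4% to 52.8% of the summed CPM per kb of the 9 members in WT libraries and for 90.9% to 92.4% in KSR23 libraries. Because the protocol copied RNA from oligo-dT primers and amplified it, levels per length are approximate.

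The balance between a cytokine and its inhibitor or receptor was examined as the log2 ratio of counts within a library (0.5 added to each count), which needs no scaling between libraries. In all 4 ratios tested the mean was lower in KSR23. P-values are from two-sided exact permutation tests, whose smallest possible value for 5 against 5 is 0.00794, and were adjusted over the 4 ratios. These ratios were chosen with earlier results in view and are made of the same counts as the fold changes above.

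The ratio of Il18bp to Il18 fell most. In WT there were 0.625, 0.656, 0.505, 0.604 and 0.457 counts of Il18bp per count of Il18, and in KSR23 0.0977, 0.0641, 0.0809, 0.0902 and 0.0787. All 5 KSR23 libraries lay far below all WT libraries, and the spread within each group was small. The mean log2 ratio went from -0.83 ± 0.22 to -3.62 ± 0.23 (SD, n = 5 each), a difference of -2.79 (exact p = 0.00794, adjusted p = 0.0159). Il18bp transcript thus rose, but by less than that of its ligand.

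The decoy receptor fell relative to the signalling receptor. Il1r2 had 1.71, 0.623, 1.12, 0.801 and 1.43 counts per count of Il1r1 in WT and 0.234, 0.429, 0.536, 0.262 and 0.300 in KSR23. The groups did not overlap, with mean log2 ratios of 0.09 ± 0.59 and -1.57 ± 0.50 (SD, n = 5 each) and a difference of -1.66 (exact p = 0.00794, adjusted p = 0.0159). Neither receptor was called on its own.

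The antagonist to ligand ratio, Il1rn to the sum of Il1a and Il1b, was 0.264, 0.295, 0.307, 0.176 and 0.193 in WT and 0.129, 0.214, 0.166, 0.137 and 0.123 in KSR23. In 4 of 5 KSR23 libraries it lay below all WT libraries, and replicate 2 was inside the WT range. The log2 difference was -0.68 (exact p = 0.0317, adjusted p = 0.0317), and it missed the threshold when WT replicate 1, 2 or 3 or KSR23 replicate 1, 4 or 5 was left out (exact test, adjusted p = 0.0556 each).

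The ratio of Il33 to Il1rl1 was 0.596, 1.80, 0.629, 0.815 and 0.518 in WT and 0.598, 0.283, 0.355, 0.443 and 0.306 in KSR23. Here too 4 of 5 KSR23 libraries lay below all WT libraries, and replicate 1 was inside the WT range. The log2 difference was -1.02 (exact p = 0.0238, adjusted p = 0.0317). Leaving out WT replicate 2, which had the highest ratio, gave -0.72 (exact test, adjusted p = 0.0529), and the adjusted p was 0.0556 without KSR23 replicate 4 or 5. From replicates 1 to 3 alone none of the 4 ratios could pass the threshold, since 3 against 3 cannot go below 0.1, and all 4 differences were negative there (-0.79 to -2.89).

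**Figure D4:**
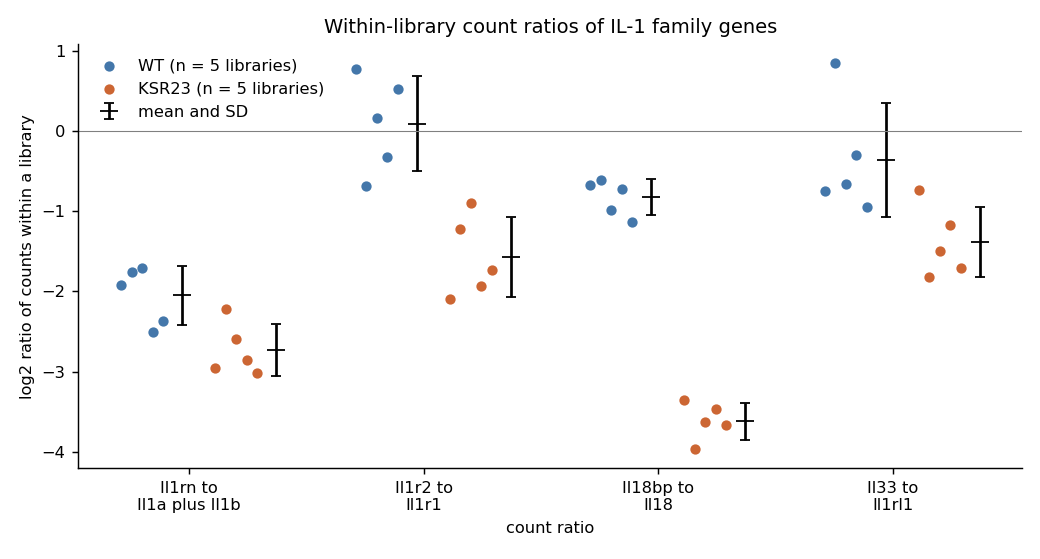
Log2 ratio of counts within a library for 4 pairs of IL-1 family genes, with 1 point per library (5 WT, 5 KSR23) and bars for the mean and SD. The groups are separate for Il1r2 to Il1r1 and for Il18bp to Il18 (means -0.83 and -3.62), and overlap by 1 KSR23 library for the other pairs.

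The genes whose profiles over the 10 libraries were most like each member were found by the root mean square (RMS) difference of log2 CPM, each gene centred on its mean, among 13181 genes with 5 or more counts in every library. The genes nearest to Il18 were Gpx2 (RMS 0.24 on the log2 scale) and Chst4 (0.28), with log2 fold changes of 3.96 and 4.28. Those nearest to Il18bp were Skap2 and Ehf (0.14 each). Il1a was nearest to Abhd2 (0.20) and Nipal1 (0.21), and Il1r1 to Ano7 (0.19). Il1r2 was nearest to Ppp2r2d (0.13) and Hilpda (0.16), Il33 to Col6a1 (0.13), and Il1rl1 to Bub1 and Kif20a (0.20 each). Of all 13181 genes, the one nearest to Il1b was a member, Il1rn (0.46), with 1810024B03Rik next (0.46), although the nearest to Il1rn were Slc7a11 (0.28) and Pcdhga2 (0.39). The distances for Il1b were the largest of the family. These likenesses are descriptions over libraries that share group differences and depth.

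The surrounding pathway was read from 6 lists with 107 genes in the files, of which 99 passed the filter. The lists were chosen with earlier results of these data known, so a share above that of all genes is not a test of the pathway. Of the 99, 45 were called (45.5%, against 18.5% of all genes), 36 higher and 9 lower in KSR23, with a median log2 fold change of 0.64 against 0.03 over all genes tested. The quasi-likelihood test called 36. Without replicates 4 and 5 these numbers were 8 and 2, in fits that called 3.36% and 0.812% of all genes. Beside the genes given by the naming rule, others of the lists are named after their values were seen. In bulk tissue, fewer cells of a type and less RNA per cell cannot be told apart.

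Of 12 genes of other ligands and receptors of the family, 7 passed the filter and 1 was called (14.3%, against 18.5% of all genes). It was Il1rapl1, an accessory protein of neurons (6 to 16 counts in WT and 0 to 17 in KSR23; log2 fold change -2.11, adjusted p = 0.0403, quasi-likelihood adjusted p = 0.124; 0.607 within replicates 1 to 3). The IL-18 receptor genes were low, with 14 to 70 counts of Il18r1 (log2 fold change 0.31, SE 0.46, adjusted p = 0.708) and 2 to 51 counts of Il18rap (0.90, SE 0.49, adjusted p = 0.202) over the libraries. For Il1rap, the shared co-receptor of IL-1 and IL-33, the log2 fold change was -0.40 (SE 0.36, adjusted p = 0.492). Sigirr, an inhibitory receptor of gut epithelium, was measured at 37.7 ± 3.79 CPM in WT against 40.9 ± 3.04 CPM in KSR23 (SD, n = 5 each; log2 fold change 0.12, SE 0.24, adjusted p = 0.806). The IL-36 cytokines, listed under their older symbols Il1f6, Il1f8 and Il1f9, and the antagonist Il1f5 had at most 3 counts in a library, except for Il1f9 with 0 to 26.

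Among 25 genes of cytokine processing and release, all of which passed the filter, 10 were called, 7 higher and 3 lower (median log2 fold change 0.37). Casp1, which encodes the protease that matures IL-1 beta and IL-18, fell from 333 ± 61.1 to 180 ± 67.8 CPM (SD, n = 5 each; log2 fold change -0.89, SE 0.30, adjusted p = 0.0212, or 0.038 by quasi-likelihood), and Gsdmd, which encodes the pore that releases them, rose (1.01, SE 0.30, adjusted p = 0.00734). Naip1, an inflammasome sensor of bacterial proteins, rose (1.37, SE 0.34, adjusted p = 0.000967), and the chymase genes Mcpt4 (-2.34, SE 0.54, adjusted p = 0.000499) and Cma1 (-1.34, SE 0.43, adjusted p = 0.0168) fell. Elane, a neutrophil protease, had 0 counts in all WT libraries and 0 to 7 in KSR23, too few for a fold change (adjusted p = 0.00852; quasi-likelihood adjusted p = 0.0838). The lowest adjusted p of the 25 genes was 0.0683, that of Elane, when replicates 4 and 5 were left out.

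Of 20 genes of receptor signalling, 8 were called and all 8 were higher (median log2 fold change 0.50). The largest were Nfkbia, the inhibitor of NF-kB (2.12, SE 0.68, adjusted p = 0.0194), Tab3 (1.79, SE 0.40, adjusted p = 0.000254), Tirap (1.68, SE 0.37, adjusted p = 0.000207) and Traf6 (1.52, SE 0.46, adjusted p = 0.0106), which encode adaptors and a ubiquitin ligase of the pathway. The quasi-likelihood test called 5 of the 20, which were Tab3, Tirap, Traf6, Irak4 and Ikbkb, and the lowest adjusted p within replicates 1 to 3 was 0.134, that of Tirap.

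Among 23 genes commonly induced by IL-1 through NF-kB, which other stimuli induce as well, 13 were called and all 13 were higher (median log2 fold change 1.52). Ccl20, a chemokine of epithelium, had 83 to 213 counts in WT and 1821 to 4912 in KSR23 (log2 fold change 4.08, SE 0.44, adjusted p = 5.21e-14). Zc3h12a, a ribonuclease that limits inflammatory transcripts, rose (3.02, SE 0.46, adjusted p = 6.47e-08), as did the chemokine Cxcl1 (2.69, SE 0.67, adjusted p = 0.00207) and the NF-kB regulator Tnfaip3 (2.33, SE 0.28, adjusted p = 7.38e-14). Il6 (0 to 69 counts; 2.09, SE 1.07, adjusted p = 0.181) and Cxcl2 (0.38, SE 0.86, adjusted p = 0.819) did not pass. Within replicates 1 to 3, 4 of the 23 genes were called, namely Ccl20, Tnfaip3, Zc3h12a and Birc3.

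Genes that act downstream of IL-18 and of IL-33 were read last. Of 15 interferon-gamma genes, 7 were called and all 7 were higher (median log2 fold change 1.0), led by Ifng itself (0 to 8 counts in WT and 12 to 42 in KSR23; log2 fold change 2.86, SE 0.75, adjusted p = 0.00167), Cxcl9 (2.06, SE 0.43, adjusted p = 7.76e-05), Gbp4 (1.88, SE 0.27, adjusted p = 1.78e-09) and Cxcl10 (1.84, SE 0.35, adjusted p = 1.21e-05). The Th1 regulator Tbx21 (0 to 33 counts) did not pass the test (adjusted p = 0.99). Ifng and Gbp4 were called within replicates 1 to 3 as well.

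Of 14 type 2 genes downstream of IL-33, 11 passed the filter, and 5 of these were lower and 2 higher (median log2 fold change -0.42). Ccl11, the eosinophil chemokine eotaxin, fell from 170 ± 8.63 to 45.9 ± 20.6 CPM (SD, n = 5 each; log2 fold change -1.89, SE 0.31, adjusted p = 2.85e-07). Il4 had 6 to 28 counts in WT and 0 to 8 in KSR23 (-3.76, SE 1.07, adjusted p = 0.00405), and Areg, a growth factor of the epidermal growth factor family, had 52 to 305 counts in WT and 3 to 102 in KSR23 (-2.29, SE 0.60, adjusted p = 0.00309). Ccl24 (-1.18) was also lower, and Chil3 (2.57) and Il2ra (1.48) were higher. The quasi-likelihood test called the same 5 lower genes and neither of the 2 higher. Il5, Il13 and Il9 had at most 4 counts in a library. Il4 and Ccl11 were called without replicates 4 and 5 too.

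**Figure D5:**
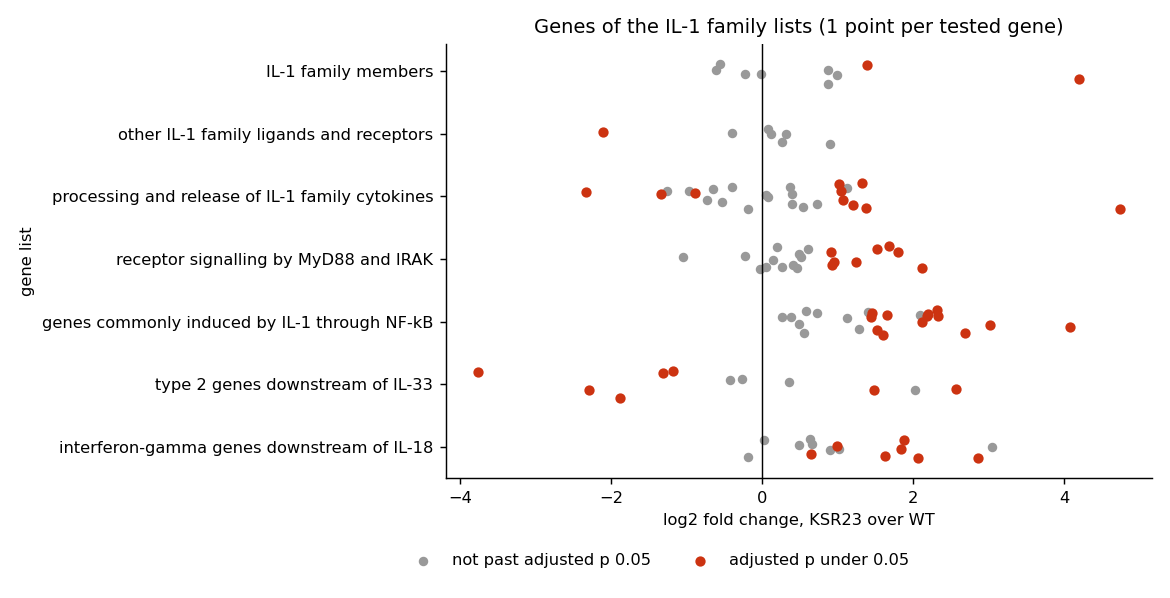
Log2 fold change (KSR23 over WT) of each tested gene of the IL-1 family members and of the 6 pathway lists, with red points at an adjusted p under 0.05 and gray points for the rest. The called genes lie to the right of 0 in the lists of receptor signalling (8 of 20 genes), NF-kB induction (13 of 23) and interferon-gamma (7 of 15), and on both sides in the list of type 2 genes.

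Markers of cells that express the members were read from the same fit, and their part in the results was not tested. The counts of called genes below stand against 18.5% of all genes, or 3.36% within replicates 1 to 3. These lists too were chosen with earlier results of these data known. Beside Il18, 3 of 10 intestinal epithelial genes were called, all higher (Krt20, Elf3 and Cdh1), of which Cdh1 missed the threshold by quasi-likelihood (adjusted p = 0.0572), and within replicates 1 to 3 Krt20 alone was called. The summed level of that list was 3104 to 5902 CPM in WT and 6206 to 10165 CPM in KSR23, and the most abundant genes were Cldn7 and Krt19 in WT and Krt20 and Krt8 in KSR23. Beside Il1b, 6 of 15 macrophage and monocyte genes were called, with Cd14 and Itgam higher and Cd68, C1qb and C1qc among the lower ones. The quasi-likelihood test called 4 of these, without Itgam (adjusted p = 0.0521) and C1qc (adjusted p = 0.0696), and the lowest adjusted p of the list within replicates 1 to 3 was 0.133, that of Cd14. The summed level was 992 to 1206 CPM in WT and 715 to 962 CPM in KSR23. Of 13 neutrophil genes, Ltf was higher and Retnlg and Ngp lower, beside Il1b and Il1r2, with a summed level of 54.9 to 123 CPM in WT and 81.1 to 119 CPM in KSR23, and the defining Mpo had 0 to 13 counts. Ltf and Retnlg were called within replicates 1 to 3 too.

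Beside Il1rl1, whose own change was not called, 7 of 11 mast cell genes were called, all lower (6 by quasi-likelihood). The summed level of all 11 was 32.5 to 59.4 CPM in WT and 24.6 to 32.9 CPM in KSR23. That sum includes Kit, the most abundant of the list in KSR23, which went the other way without being called. Its mean was 9.52 CPM in WT and 16.9 CPM in KSR23 (log2 fold change 0.83, SE 0.33, adjusted p = 0.0579). Hdc was also not called and had a positive value (0.45, SE 0.48, adjusted p = 0.571). Mcpt1, the mucosal mast cell protease, had the lowest adjusted p of the 7 called (log2 fold change -2.19, SE 0.31, adjusted p = 1.27e-09). Without replicates 4 and 5, 4 of the 11 were called, Mcpt1, Mcpt2, Cpa3 and Tpsab1. Mcpt4 and Cma1 stand in this list as well as in that of cytokine processing. Of the 14 lymphocyte genes, Cd8a and Nkg7 were lower, with adjusted p = 0.568 and 0.371 within replicates 1 to 3, and Cd8a missed the threshold by quasi-likelihood (adjusted p = 0.0514; summed level 136 to 190.0 CPM in WT and 93.4 to 196 CPM in KSR23).

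Beside Il33, which stromal and endothelial cells express, few genes were called, a share near or below that of all genes in each list. All were lower in KSR23, and they were 1 of 10 fibroblast genes (Dcn), 2 of 9 endothelial genes (Cdh5 and Emcn) and 2 of 10 genes of muscle, neurons and glia (Acta2 and S100b). Acta2 missed the threshold by quasi-likelihood (adjusted p = 0.0538), and within replicates 1 to 3 S100b alone was called. The summed levels overlapped between the groups, at 1295 to 1976 CPM in WT and 1275 to 1811 CPM in KSR23 for fibroblasts, and at 159 to 205 and 160 to 191 CPM for endothelium. For muscle, neurons and glia they were 1484 to 3300 CPM in WT and 1513 to 2024 CPM in KSR23. Of the squamous epithelial markers, Dsg3 was at 0 in every library and Krt5 had 7 counts or fewer. Krt14, whose promoter drives the cre, had 55 to 107 counts in WT and 65 to 173 in KSR23 (log2 fold change 0.17, SE 0.37, adjusted p = 0.814). Of that list 5 of 8 genes passed the filter, with Ivl lower (45 to 70 counts in WT and 0 to 16 in KSR23) and Krt4 (0 to 8 counts) called higher, but not by quasi-likelihood (adjusted p = 0.074) or within replicates 1 to 3 (adjusted p = 0.495), and the summed level was 3.89 to 5.20 CPM in WT and 2.02 to 5.93 CPM in KSR23.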

How the data were processed

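Jejunum RNA of 5 WT and 5 KSR23 samples was copied from oligo-dT primers with a low-input kit, amplified by PCR without molecular identifiers, and sequenced as single-end reads. The deposited values were counts of reads per gene, whole numbers not normalized by the authors, who mapped to mm10 with TopHat2 2.1.0 and counted with HTSeq 0.6.1p1 by strict intersection with transcript models (versions from the submitters' processing notes, which also name FastQC and edgeR 3.18.1). The strand setting is not given in the sources used here. Reads outside genes (6.20% to 10.2% of uniquely aligned reads) and ambiguous reads (1.55% to 1.72%) entered no test. Precision was set by 25.5 to 60.9 M counts per library and by the replicates, and the detection floor covers counting error only.

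Libraries were grouped by their labels. Genes reaching 5 counts in any library were kept, scaled by TMM factors and fitted in edgeR 4.0.16 (R 4.3.3) with group as the only term, then compared by the likelihood ratio test as in the study, with Benjamini-Hochberg adjustment over 17632 genes; this reads the study's filter as 1 library being enough. The quasi-likelihood F test is given beside it. Log2 fold changes are KSR23 over WT. Scripts were tested on simulated counts. Alternatives were DESeq2 1.42.0, RLE factors, library totals alone, no filter, 5 or more counts in every library, leaving out each library, replicates 1 to 3 alone, the replicate block, and a covariate made of the Y-linked share of counts (log2). The quasi-likelihood test on replicates 1 to 3 was added after seeing the data.

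Named genes were the 9 members, the called genes of each list (the 4 with the largest absolute log2 fold change where more than 6 were called), the 2 most abundant of each marker list and the 2 nearest genes of each member; others were named after their values were seen. A few genes that this rule names are not reported here. The members, lists and ratios were chosen with earlier results of these data known. Positions and exon lengths are from GENCODE M21 on mm10, which held 22750 of the 24062 symbols (94.5%), and promoter sequences from RefSeq on GRCm38.p6. Adgre1 was matched as Emr1, and Ly6g had no matching symbol.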

Additional observations from a re-analysis of the deposited data

Results flagged for a closer look

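In a scan of 26 groups of 5 values (log2 CPM of each member and the 4 log2 ratios, per group), 1 value was far from the other 4 by the gap criterion of Dixon, which chance alone meets about 1.3 times in a scan of this size. It was the log2 CPM of Il33 in WT replicate 3, at 3.12 against 4.14 in the next library (gap over range 0.814, critical value 0.71). This library also had 492 Y-linked counts, the fewest in WT.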

How the results depend on the processing

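Il18 was called in all 20 alternatives (log2 fold change 3.49 to 4.42). The number of members called was 2 in most alternatives and 2 to 4 when each library was left out in turn, with 4 without KSR23 replicate 1 (Il1a and Il1rl1 added). It was 1 from replicates 1 to 3 alone by either test and 5 with the Y-linked share as a covariate, which added Il1b (-1.95, adjusted p = 0.000417), Il1rn (-1.32, adjusted p = 0.0488) and Il1r2 (-1.19, adjusted p = 0.0145). The number of pathway genes called, 45 in the reported fit, was 33 to 42 when each library was left out in turn, 27 with the Y-linked share, and 8 and 2 (likelihood ratio and quasi-likelihood) from replicates 1 to 3. That of marker genes, 29 in the reported fit, was 20 to 35, and 9 and 3 from replicates 1 to 3. Il33 changed sign, to 0.15 in replicates 1 to 3 by both tests and between -0.20 and 0.10 when each library was left out, as did Il1rn (-0.41 to 0.064, the latter without KSR23 replicate 1); neither was called. The ratio differences when each library was left out were -0.80 to -0.59 (Il1rn to ligands), -1.86 to -1.49 (Il1r2 to Il1r1), -2.87 to -2.70 (Il18bp to Il18) and -1.19 to -0.72 (Il33 to Il1rl1), with exact adjusted p up to 0.0556 for the first and last. From replicates 1 to 3 they were -0.79, -1.49, -2.89 and -1.16, where the exact p cannot go below 0.1. Same-numbered libraries did not deviate together (correlations -0.55 to 0.25), so the numbers were not taken as pairs. This check cannot exclude that some libraries came from littermates. With a replicate block the members called were 2, the pathway genes 29, and the ratio differences -0.68, -1.66, -2.79 and -1.02 with an exact sign-flip p that cannot go below 0.0625 for 5 pairs. With DESeq2, 3 members were called (Il1r1 added). Apart from the smaller number of libraries in some of these settings, the cause was not tested. Values of Il18r1, Il18rap, Il5, Il13 and Il9 rest on 70 counts or fewer per library. The scaling moved the median of all genes by under 0.1 (log2).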
